A study of Mus musculus with 6 samples.

Results

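The windows described here are stretches of 1000 bp in the mouse genome that hold few measured CpG sites, have an intermediate median methylation level and have no stretch dense in measured CpG sites close by. They were chosen by their methylation averaged over all libraries: autosomal windows with 3 to 9 CpG sites, each covered by at least 10 reads in all 6 libraries, a median site level from 20% to under 70%, and no window with 10 or more such sites within 2 windows on either side. This gave 7216 windows, which were 12.2% of 59285 isolated windows of 3 to 9 sites on the 19 autosomes. In all, 89813 windows had at least 3 sites and were tested. Only sites with enough reads were counted, so a window can hold more CpG sites in its sequence than were measured. Since the median level chose the windows, that level is a description. Differences between groups and the order of sites within a window played no part in the choice. Place in the genome did, because windows close to a stretch dense in measured sites were left out.

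DNA came from kidney cortex and outer medulla of male wild type C57BL/6J mice, with 2 libraries in each of 3 groups. UUO 5AZA kidneys had the left ureter tied off for 7 days (unilateral ureteral obstruction, UUO) in mice given 5AZA, a drug known to inhibit DNA methyltransferases, at 1 mg/kg per day by intraperitoneal injection. UUO saline kidneys had the same obstruction with daily saline. Sham 1 was the sham operation for the obstruction, and sham 2 belonged to another experiment, on ischemia and reperfusion, and carries 48 hours in its name. The obstructed kidney is widely used as a model of renal fibrosis, and the study set out to find genes whose methylation changes in it. The labels give no number of mice and do not say that the 2 libraries of a group came from separate mice, so p-values measure only the spread between these libraries.

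In mammals, most CpG sites far from gene starts are fully methylated, and CpG islands at active promoters are unmethylated. Levels in between are found at distal regulatory elements, at promoters with few CpG sites that are used in some cell types only, at imprinted regions, and wherever a tissue mixes cells that are methylated with cells that are not. Reduced representation bisulfite sequencing cuts DNA with MspI at CCGG, keeps short fragments and reads the sites near their ends, so that every fragment begins and ends in a CpG of an MspI site. Here the cut ends were filled in with a mix that held methylated dCTP.

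The promoters below show what such windows look like in sequence. They are RefSeq promoter sequences of GRCm38.p6, placed on mm9 by matching the spacing of their CpG dinucleotides to the measured positions, and they were chosen after their values were seen: 5 genes of the proximal tubule, the kidney segment that reabsorbs most of the filtrate, and 1 matrix gene. Capital CCGG marks a measured CpG within an MspI site and capital CG any other measured CpG of the window; lower case CpGs did not reach 10 reads in all libraries or lie in another window. Slc7a7 (a light chain of a basolateral cationic amino acid exporter) lies at chr14:55036467-55036766 on the minus strand, Dpep1 (a brush border dipeptidase) at chr8:125709885-125710184 on the plus strand and Pklr (pyruvate kinase of liver, red cells and proximal tubule) at chr3:88940295-88940594 on the plus strand. Cubn (cubilin, the endocytic receptor for filtered proteins) lies at chr2:13413454-13413753 on the minus strand, A1cf (an RNA-binding cofactor of APOBEC1) at chr19:31943053-31943352 on the plus strand and Col1a2 (a chain of type I collagen) at chr6:4455368-4455667 on the plus strand.
Slc7a7: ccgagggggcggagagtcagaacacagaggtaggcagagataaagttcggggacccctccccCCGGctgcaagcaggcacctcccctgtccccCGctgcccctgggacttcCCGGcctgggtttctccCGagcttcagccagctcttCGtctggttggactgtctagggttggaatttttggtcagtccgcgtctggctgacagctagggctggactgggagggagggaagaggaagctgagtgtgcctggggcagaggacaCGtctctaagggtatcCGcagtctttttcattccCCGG
Dpep1: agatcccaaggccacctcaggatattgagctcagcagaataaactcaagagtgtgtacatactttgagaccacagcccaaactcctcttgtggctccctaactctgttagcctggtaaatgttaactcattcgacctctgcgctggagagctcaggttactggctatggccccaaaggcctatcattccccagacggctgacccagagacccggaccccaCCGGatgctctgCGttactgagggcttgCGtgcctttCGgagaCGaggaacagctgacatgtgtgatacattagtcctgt
Pklr: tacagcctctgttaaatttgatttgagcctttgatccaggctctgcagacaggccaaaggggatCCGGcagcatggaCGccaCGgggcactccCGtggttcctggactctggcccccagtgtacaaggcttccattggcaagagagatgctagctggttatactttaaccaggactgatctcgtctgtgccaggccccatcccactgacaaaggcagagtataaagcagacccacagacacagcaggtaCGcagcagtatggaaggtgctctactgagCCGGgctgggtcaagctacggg
Cubn: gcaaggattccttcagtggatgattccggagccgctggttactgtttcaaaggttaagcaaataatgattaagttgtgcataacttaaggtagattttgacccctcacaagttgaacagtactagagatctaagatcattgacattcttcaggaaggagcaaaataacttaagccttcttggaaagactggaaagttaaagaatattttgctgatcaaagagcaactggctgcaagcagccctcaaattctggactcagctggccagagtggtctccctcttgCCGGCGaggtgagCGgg
A1cf: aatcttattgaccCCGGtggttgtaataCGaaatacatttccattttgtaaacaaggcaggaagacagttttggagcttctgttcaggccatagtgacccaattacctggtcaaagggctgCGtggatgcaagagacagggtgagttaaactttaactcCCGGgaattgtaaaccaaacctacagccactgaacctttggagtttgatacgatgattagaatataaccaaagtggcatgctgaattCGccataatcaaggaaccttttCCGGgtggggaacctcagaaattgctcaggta
Col1a2: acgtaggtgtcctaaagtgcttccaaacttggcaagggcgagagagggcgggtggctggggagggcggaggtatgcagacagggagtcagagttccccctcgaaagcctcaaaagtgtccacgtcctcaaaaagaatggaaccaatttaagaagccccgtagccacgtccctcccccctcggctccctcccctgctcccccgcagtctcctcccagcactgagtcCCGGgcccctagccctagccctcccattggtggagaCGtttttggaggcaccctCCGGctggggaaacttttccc

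In all 6 promoters the MspI sites and the other sites had separate levels. In Slc7a7 the 3 MspI sites lay between 63.8% and 85.1% (mean over the 6 libraries), whereas the 5 other sites between and beside them lay between 7.71% and 23.3%. In Dpep1 the MspI site had 75.5%, and the 4 other sites had 16.2% to 39.9%. Col1a2 was the extreme: its 2 MspI sites had 64.7% and 72.7% and its only other measured site 1.83%, so that the window's median of 64.7% was the level of an MspI site.

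Site levels within these windows were far from uniform. A median window had its highest site at 89.0% and its lowest at 25.7%, and the median range between them was 62.1 percentage points. A site of 70% or more was present in 7108 windows (98.5%), and 2787 (38.6%) held a site of 70% or more beside one under 20%. Only 53 windows (0.734%) had all sites from 20% to under 70%. The intermediate median was thus, in nearly all of these windows, the middle of a wide span of site levels and not a level that the sites shared.

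The high sites were those at the ends of runs of sites. Sites were sorted by position and coverage alone: outer sites stand first or last in a run whose neighbours are at most 220 bp apart, junction sites have as many reads as both neighbours together (to within 5%), as where 2 fragments meet, and interior sites have neighbours on both sides and are not junctions. A further 54 sites had no neighbour within 220 bp and were left out of this split. The 13474 outer sites averaged 79.6%, the 1470 junction sites 65.8% and the 19997 interior sites 38.2%. The highest site was an outer or junction site in 6840 windows (94.8%), and the lowest was an interior site in 6789 (94.1%). Isolated windows with a median under 20% had outer sites at 67.2% and interior sites at 6.94%, and those with a median of 70% or more had 93.4% and 82.5%.

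**Figure D1:**
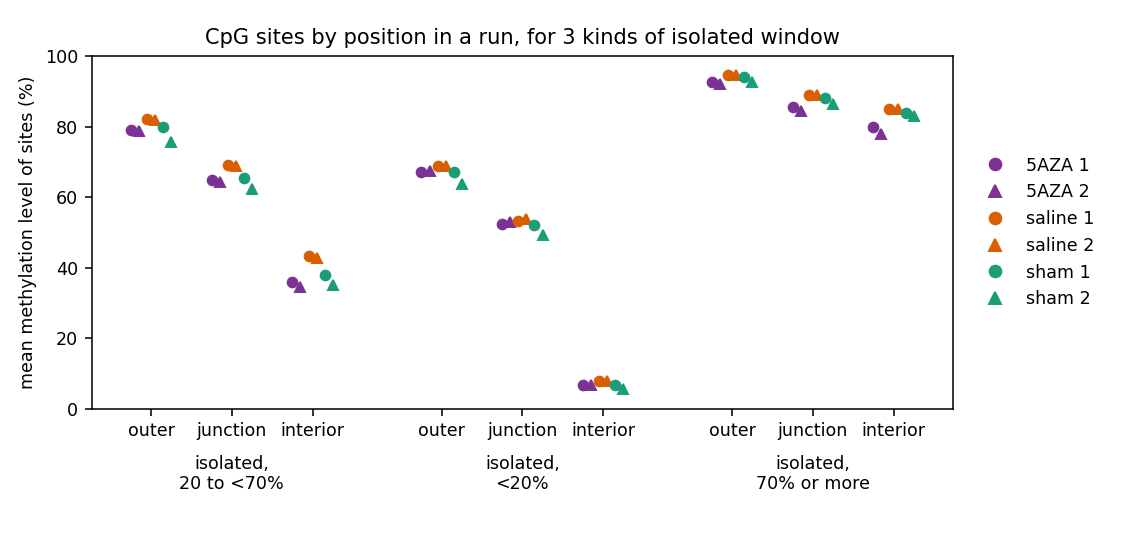
Mean methylation level (%) of outer, junction and interior CpG sites in each library, for isolated windows with a median level of 20% to under 70%, under 20%, and 70% or more; each point is 1 library. In the intermediate windows the outer sites lie between 75.7% and 82.1% and the interior sites between 34.4% and 43.2% in every library.

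Where sequence was at hand, the high sites were MspI sites. Promoters could be placed at 151 of the windows (2.09%), of 150 genes. Their 300 bp sequences held 5 to 35 CpG dinucleotides, with a median of 10, so some lay in CpG-dense promoters of which few sites were measured. In these, 248 sites within CCGG averaged 77.3%, with quartiles of 70.8% and 85.5%, and 372 other sites averaged 23.1%, with quartiles of 3.34% and 37.2%. The MspI sites averaged more than the other sites in 143 of the 143 windows that had both in the promoter. In 80 of the 145 windows with another site, the other sites averaged under 20%. Over all placed promoters 19486 MspI sites averaged 73.0% and 94637 other sites 2.86%, so a level near 73% at an MspI site was also measured where the sites around it were nearly unmethylated. Of the outer sites in placed promoters of these windows 97.9% were MspI sites, against 8.51% of the interior sites.

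**Figure D2:**
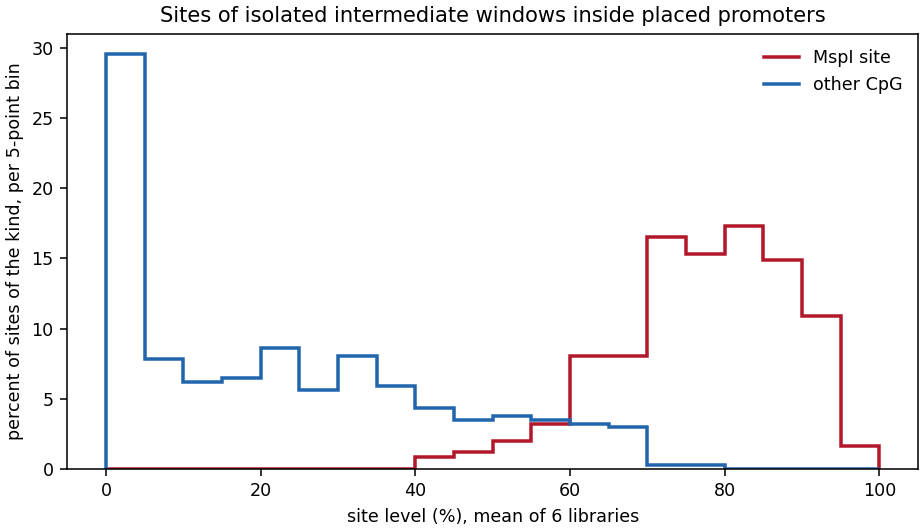
Share of sites (%, vertical axis) in each 5-point bin of site level (%, mean of 6 libraries) for 248 MspI sites and 372 other CpG sites of the intermediate windows inside placed promoters. The MspI sites lie around 77.3%, and the other sites around 23.1% with their highest bin under 5%.

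With interior sites alone, most windows were still intermediate and a minority were low. Of 7159 windows with an interior site, the interior median was from 20% to under 70% in 5462 (76.3%), under 20% in 1676 (23.4%) and under 5% in 517, and it was 70% or more in 21. Where at least 3 interior sites were measured (3419 windows), their levels spanned a median of 24.5 points, against 62.1 points for all sites of all windows. The interior median was also from 20% to under 70% in 8253 of 47474 isolated windows (17.4%) whose median over all sites was 70% or more. Whether the fill-in with methylated dCTP sets the level of the end sites was not tested.

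**Figure D3:**
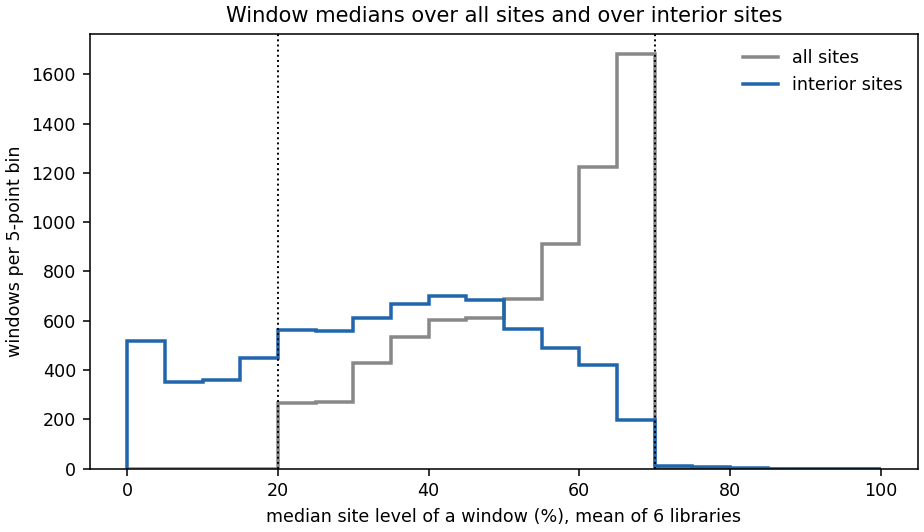
Number of intermediate windows (vertical axis) per 5-point bin of the median site level (%), over all sites and over interior sites only; dotted lines mark 20% and 70%. The medians over all sites stop at those limits because they chose the windows, whereas the interior medians reach below 5% in 517 windows.

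Windows with at least 6 sites and a mean of 50 reads per site in every library show both ends of this range. At chr9:43653001-43654000 the 8 sites spanned 95.4 points, from 1.66% to 97.1%, and at chr19:42706001-42707000 the 8 sites spanned 94.9 points, with an interior median of 5.82%. At chr5:115950001-115951000 the 9 sites spanned 94.0 points. The smallest spans were 28.5 points at chr5:148458001-148459000 (62.6% to 91.1%), 31.5 points at chr16:33751001-33752000 and 33.3 points at chr10:24736001-24737000. In these 3 the lowest site was above 60%, and their interior medians were 66.1%, 62.2% and 65.2%.

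At the limits of the rule, chr7:140306001-140307000 and chr17:45718001-45719000 were just inside 20% with medians of 20.0139% and 20.0492%, and chr11:84593001-84594000 and chr11:120214001-120215000 just outside with 19.9961% and 19.9823%. At 70%, chr8:23921001-23922000 and chr12:86073001-86074000 were just inside with 69.9971% and 69.9869%, and chr5:118768001-118769000 and chr4:125930001-125931000 just outside with 70.0019% and 70.0034%. The medians of the whole set leaned to the upper limit: 538 lay from 20% to under 30%, 961 under 40%, 1215 under 50%, 1598 under 60% and 2904 from 60% to under 70%.

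Most of the windows were short, single measured stretches. They held 34995 sites, with 4 sites in the largest class (2415 windows), a median spacing of 22 bp and a median span of 139 bp from first to last site. Their share among isolated windows was lowest on chromosome 1 (10.3%) and highest on chromosome 11 (14.3%). No neighbouring window with 3 or more measured sites existed for 5595 of them. The 1729 neighbours that did exist had a median level of 70% or more in 55.9%, from 20% to under 70% in 29.8% and under 20% in 14.3%, while neighbours of isolated windows of 70% or more were intermediate in 11.3%.

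Runs of adjacent intermediate windows were rare and at most 3 windows long. There were 482 windows next to another one and 10 runs of 3, on 6 chromosomes. In the 30 windows of these runs no comparison between groups passed the test. Over all windows at most 1.56% passed in any comparison and direction, so 30 windows are too few for a result about runs. One run, at chr2:165292001-165295000, lay 4515 to 6621 bp downstream of placed starts of Slc13a3, the sodium-dependent dicarboxylate transporter of the proximal tubule. Its 3 windows had medians of 62.7%, 63.0% and 62.0%, and interior medians of 60.1%, 55.9% and 58.8%.

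The windows lay far from gene starts, as far as starts could be placed. The rule itself favoured this, since it left out windows close to stretches dense in measured sites. The nearest placed start was a median of 54944 bp away, and 3.20% of the windows were within 1000 bp of one. Isolated windows under 20% were nearer (median 27547 bp, 23.3% within 1000 bp), and isolated windows of 70% or more were farther (73683 bp, 0.407%). Only starts with at least 5 matched CpG sites could be placed, so these distances are upper bounds.

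Summed covering reads over all CpG sites came to 57853745 and 64539660 in the 5AZA libraries, 76730132 and 65733691 in the saline libraries, and 68501854 and 37728517 in sham 1 and sham 2. A site of the intermediate windows had a median of 46 and 48 reads in 5AZA, 55 and 50 in saline, and 52 and 30 in sham. Sham 2 was the shallowest library, and its MspI sites in placed promoters were the lowest of the 6, at 69.5% against 73.2% to 74.5% in the others.

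Obstructed kidneys given saline had higher levels in these windows than sham kidneys, and obstructed kidneys given 5AZA were near the sham level. The window level, methylated over covering reads, averaged 54.4% and 53.9% in the 5AZA libraries, 59.7% and 59.6% in the saline libraries, and 56.1% and 52.5% in sham 1 and sham 2. Both saline libraries stood above the other 4, and the 5AZA libraries stood between the 2 sham libraries. Group means were 54.1 ± 0.336% for the 5AZA kidneys, 59.6 ± 0.0279% for the saline kidneys and 54.3 ± 2.56% for the sham kidneys (SD, n = 2 each). The difference was 5.35 points for saline minus sham, -5.52 points for 5AZA minus saline and -0.18 points for 5AZA minus sham. Saline minus sham was 3.54 points without sham 2 and 7.16 points without sham 1. No test was made on these means, because the set was chosen with earlier results of the same data known. In DNA of a whole tissue, a changed share of a cell type and a changed level within cells cannot be told apart.

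Other windows showed smaller differences between saline and sham. The mean difference was 2.03 points in isolated windows under 20%, 1.33 points in isolated windows of 70% or more, 3.38 points in intermediate windows of 3 to 9 sites close to a dense window, 4.52 points in intermediate windows of 10 or more sites, and 1.71 points over all windows tested. For 5AZA minus saline the values in the same order were -1.01, -4.07, -2.91, -4.27 and -3.15 points. For 5AZA minus sham they were 1.02, -2.75, 0.47, 0.26 and -1.44 points. Windows near 0% or 100% have less room to differ, and how the level itself bears on these sizes was not tested.

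**Figure D4:**
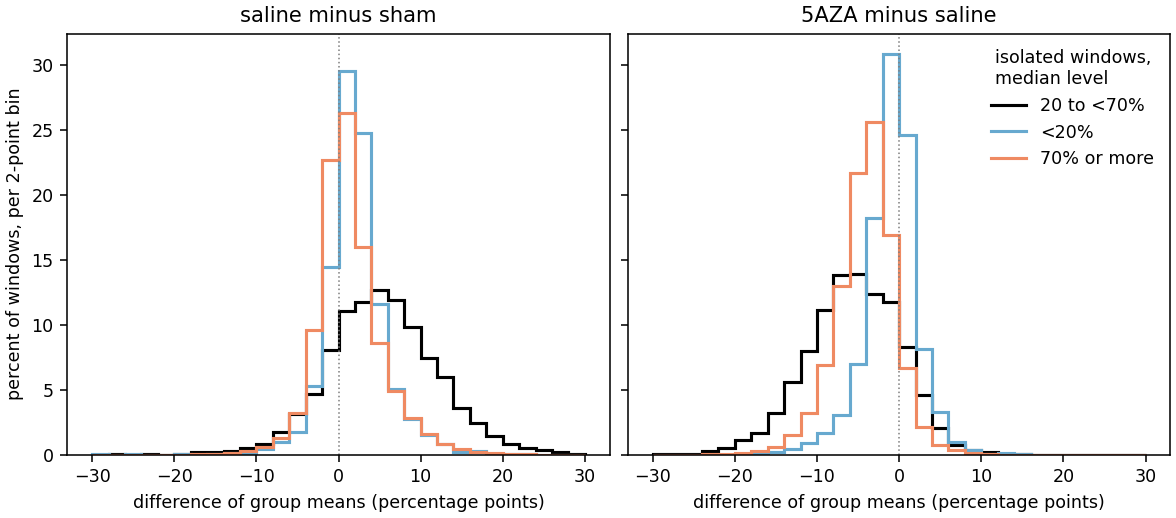
Share of windows (%, vertical axis) per 2-point bin of the difference between group means (percentage points) for saline minus sham and 5AZA minus saline, in isolated windows with a median of 20% to under 70% (7216), under 20% (2579) and 70% or more (49490). Values past 30 points either way are counted in the end bins. The intermediate windows centre at 5.17 points in the first panel and at -5.36 points in the second, and are spread more widely than the other classes.

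Interior sites differed more than end sites between saline and each of the other groups. The interior level averaged 33.9% and 32.5% in the 5AZA libraries, 41.2% and 40.9% in the saline libraries, and 35.8% and 33.3% in the sham libraries. The differences were 6.48 points for saline minus sham, -7.85 points for 5AZA minus saline and -1.37 points for 5AZA minus sham. These are means over windows. Averaged over single sites, the same comparisons gave 6.58, -7.91 and -1.33 points at interior sites, and 4.29, -3.07 and 1.22 points at outer sites. In the 5462 windows with an interior median from 20% to under 70%, the interior differences were 7.24, -9.05 and -1.81 points. In the 1676 windows with an interior median under 20% they were 4.03, -3.96 and 0.07 points, since the interior sites there averaged 11.2% in 5AZA, 15.2% in saline and 11.1% in sham.

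Between saline and sham, single windows passed the test rarely, and all of those that did were higher in saline. By the edgeR quasi-likelihood test with Benjamini-Hochberg adjustment over all 89813 windows, 7 of the 7216 windows had an adjusted p under 0.05 and were higher in saline, beside 0.0445% of all windows, and 0 were lower, beside 0.00557%. At an unadjusted p under 0.05 there were 1742 (24.1%), against 10.4% of all windows. By limma, 0 passed the adjusted threshold and 1462 the unadjusted one. The saline libraries were both above the sham pair in 3659 windows (50.7%, beside 32.3% of all windows), and both below it in 424 (5.88%, beside 9.73%). Intermediate windows of 10 or more sites had like shares, 51.0% above and 7.47% below. The saline mean was higher by 10 points or more in 1660 windows and lower by as much in 101, together 24.4% of the set. Among all 89813 windows these were 4147 and 447 (5.12%). Among the 1232 intermediate windows of 10 or more sites they were 219 and 6 (18.3%). With any 1 library of these groups left out, most of the 7 windows no longer passed, and all 7 kept their direction.

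Among the 7 windows that passed, the 5 largest rises in saline over sham were 25.9 to 28.6 points. At chr8:13248001-13249000, 39468 bp upstream of the nearest placed start (Tmco3), the level was 61.3% and 52.8% in the 5AZA libraries, 72.0% and 67.6% in the saline libraries, and 46.8% and 35.6% in the sham libraries, with an adjusted p of 0.0434 between saline and sham. All 3 groups were separate there, with 5AZA between saline and sham. At chr10:79279001-79280000, 23212 bp downstream of Palm, it was 62.2% and 60% in 5AZA, 87.4% and 90.4% in saline, and 67.5% and 54.7% in sham, with an adjusted p of 0.0418. There the 5AZA libraries lay between the sham libraries. At chr6:134199001-134200000 it was 58.4% and 57.9% in 5AZA, 76.7% and 80.5% in saline, and 53.4% and 50.7% in sham, with an adjusted p of 0.0275, the smallest of the 5. Its 5 interior sites had 46.7% and 48.2% in 5AZA, 71.5% and 75.6% in saline, and 39.9% and 36.2% in sham, wider apart than the whole window. The remaining windows were chr17:44272001-44273000, 29413 bp upstream of Enpp4, with 59.2% in 5AZA, 79.1% in saline and 51.5% in sham on average (adjusted p = 0.0434), and chr3:104467001-104468000, 24474 bp downstream of Slc16a1, a monocarboxylate transporter gene, with 65.0% in 5AZA, 86.8% in saline and 60.8% in sham (adjusted p = 0.0446). Over all 7 windows the means were 61.2% in 5AZA, 78.7% in saline and 53.1% in sham. A nearest placed start is a neighbour only and need not be the nearest gene.

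Between 5AZA and saline, more windows passed, and each of them was lower in 5AZA. By the same edgeR test, 119 windows were lower, beside 1.56% of all windows, and 0 were higher, beside 0.00445%; the 119 were 1.65% of the set, close to that background. At an unadjusted p under 0.05 there were 1738 (24.1%), against 23.2% of all windows, and limma gave 0 at the adjusted threshold and 1228 at the unadjusted one. The 5AZA libraries were both below the saline pair in 3958 windows (54.9%, beside 49.1%) and both above it in 288 (3.99%, beside 5.69%). The 119 windows averaged 53.2% in 5AZA, 71.7% in saline and 56.6% in sham, with differences from -30.8 to -10.2 points. With any 1 library of these groups left out, most of the 119 windows no longer passed, and all 119 kept their direction.

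Among the 119 windows that passed, the 5 largest falls were 26.5 to 30.8 points. At chr9:114625001-114626000, 14401 bp upstream of Cmtm6, the level was 36.8% and 39.8% in the 5AZA libraries, 67.5% and 70.5% in the saline libraries, and 52.9% and 50.3% in the sham libraries, with an adjusted p of 0.0204 between 5AZA and saline. There 5AZA lay below sham as well as below saline. At chr12:13191001-13192000, 64224 bp downstream of Ddx1, it was 51.3% and 56.5% in 5AZA, 87.5% and 82.0% in saline, and 63.4% and 71.1% in sham, with an adjusted p of 0.0315. The window at chr10:79279001-79280000, described above, fell by 27.8 points to the sham level (adjusted p = 0.0248). The windows at chr19:32573001-32574000, 12769 bp downstream of Minpp1, and at chr18:73947001-73948000 had means of 56.5% and 59.0% in 5AZA, 83.2% and 85.5% in saline, and 60.3% and 72.5% in sham (adjusted p = 0.0455 and 0.0440). Of the 7 windows called between saline and sham and the 119 called here, 5 were the same, which is 71.4% of the first list and 4.20% of the second; both comparisons share the saline libraries.

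Between 5AZA and sham, 0 windows passed the edgeR test in either direction, beside 0% of all windows higher and 0.00111% lower. At an unadjusted p under 0.05 there were 392 (5.43%), against 14.7% of all windows, and limma gave 0 and 307. Both 5AZA libraries lay above both sham libraries in 1167 windows (16.2%, beside 12.9%) and below in 1282 (17.8%, beside 31.9%). The edgeR count was also 0 in every other setting with 2 libraries per group. It changed only without 5AZA 1, which leaves 1 library in that group. The smallest adjusted p was 0.0974, at chr14:32482001-32483000, with 40.7% and 40.8% in 5AZA, 47.2% and 48.9% in saline, and 64.3% and 59.5% in sham. Next came chr2:165350001-165351000, 21442 bp downstream of Slc2a10, with 55.4% and 51.4% in 5AZA, 50.5% and 51.5% in saline, and 71.9% and 74.3% in sham (adjusted p = 0.112). In both windows the obstructed libraries of either treatment lay below sham, opposite to the saline minus sham mean of the set. At chr9:77281001-77282000 and chr5:125664001-125665000 the means were 62.4% and 59.2% in 5AZA, 77.0% and 67.8% in saline, and 84.8% and 84.3% in sham (adjusted p = 0.120 for both). At chr2:29337001-29338000 they were 68.6% in 5AZA, 73.8% in saline and 50.2% in sham (adjusted p = 0.122), and there saline was above sham with an adjusted p of 0.0442.

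Libraries of 1 group differed in these windows by more than read sampling alone gives. The mean absolute difference between the 2 libraries was 4.87 points in 5AZA, 4.97 points in saline and 6.26 points in sham. These are differences of single windows; the means over all windows differed much less within the 5AZA and saline groups. The squared difference was 1.65 times (5AZA), 1.75 times (saline) and 2.07 times (sham) the variance of read sampling. Reads carry no molecular identifiers, so this sampling variance covers counting error only.

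At the 151 windows with a placed promoter, 1 window passed a test. Of all windows, 0.0445% passed as higher in saline than in sham and 1.56% as lower in 5AZA than in saline. At such shares few of 151 windows would pass. Saline was above sham without overlap in 61 windows (40.4%, beside 32.3% of all windows) and below in 10 (6.62%, beside 9.73%). 5AZA was below saline without overlap in 54 (35.8%, beside 49.1%) and above in 9 (5.96%, beside 5.69%). By the edgeR test, 0 windows passed between saline and sham and 1 between 5AZA and saline: the promoter of Arpp21, which encodes a cAMP-regulated phosphoprotein, with 49.4% and 50.1% in 5AZA, 61.4% and 64.2% in saline, and 49.4% and 58.6% in sham (adjusted p = 0.0464). Its saline libraries lay above all others. Where the sites outside CCGG averaged 20% or more (65 windows), the median difference was 6.38 points for saline minus sham and -5.75 points for 5AZA minus saline. Where they averaged under 20% (80 windows), it was 1.70 and -1.23 points.

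Some of these promoters belong to genes of the proximal tubule. Of 84 genes in a list of brush border, transport and metabolic genes of this segment, 25 had a placed and measured promoter, and 13 of these (52.0%) lay in an intermediate isolated window, against 150 of 8518 genes (1.76%) overall. The list was written after the promoters and their values had been seen and holds genes seen among them, so neither this share nor the values of its members support a statement about such genes. Of 74 blood and immune genes, written at the same time, 4 of the 11 measured were in such a window (Itga2b, Jak3, P2rx1 and Plcb2), and of 58 matrix and myofibroblast genes, 2 of 20 (Col1a2 and Ltbp1).

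In simulated data with few changed windows the edgeR test found 1% of changes of 10 points between saline and sham. None of the 13 proximal tubule promoters passed it. The saline mean was above the sham mean in 12 of them, and without overlap in 9, beside 113 and 61 of all 151 promoter windows; these genes were picked with their values known. Ggt1, the brush border gamma-glutamyltransferase, had 64.6% and 65.6% in the 5AZA libraries, 73.8% and 65.3% in the saline libraries, and 54.7% and 58.0% in the sham libraries. Its adjusted p of 0.194 was the smallest of the 13. Both obstructed groups lay above sham there, and 5AZA and saline overlapped.

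The other promoters of transporters and enzymes had smaller or less separate differences. Dpep1 had 46.3% and 45.7% in 5AZA, 57.2% and 47.4% in saline, and 44.8% and 36.7% in sham (adjusted p = 0.339 for saline against sham). Slc7a7 had 39.8% and 37.5% in 5AZA, 43.0% and 37.6% in saline, and 32.4% and 31.1% in sham (adjusted p = 0.439). In Slc7a7 all 4 obstructed libraries lay above both sham libraries, whereas in Dpep1 all 4 did so with 5AZA below both saline libraries. Pklr had 51.1% and 41.3% in 5AZA, 63.2% and 49.5% in saline, and 46.5% and 45.1% in sham (adjusted p = 0.548), so its saline libraries differed widely from each other. Cubn had 60.1% and 62.7% in 5AZA, 64.6% and 68.7% in saline, and 62.5% and 56.2% in sham (adjusted p = 0.686). A1cf had 64.5% and 69.9% in 5AZA, 73.6% and 74.0% in saline, and 67.5% and 60.7% in sham (adjusted p = 0.330). In Cubn and A1cf the saline libraries lay above all others.

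**Figure D5:**
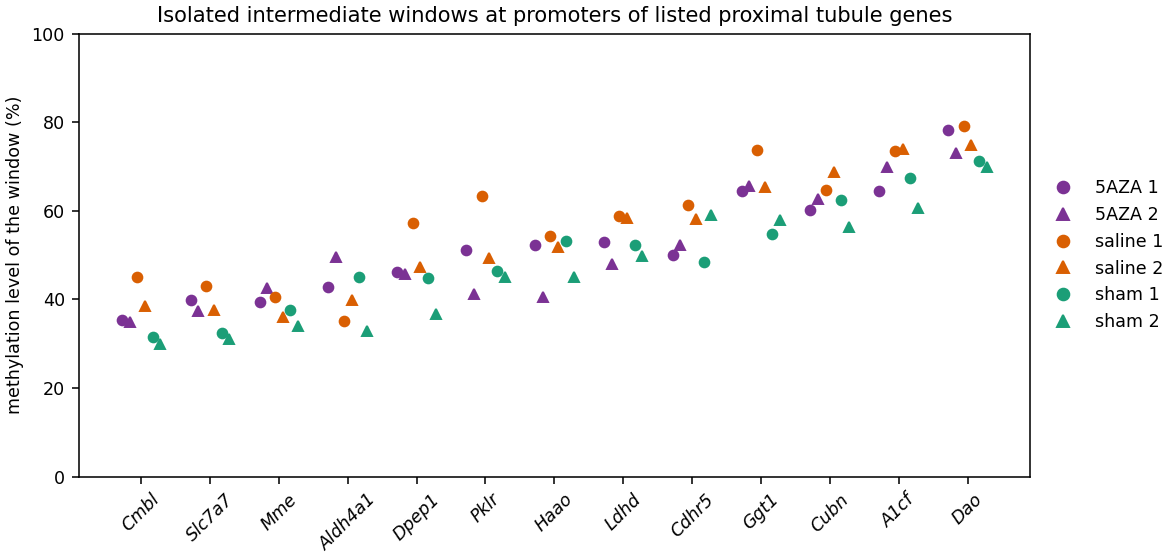
Methylation level (%) of the windows at 13 promoters of listed proximal tubule genes in each library, ordered by the sham mean; each point is 1 library. In 9 genes, among them Ggt1, Dpep1 and Slc7a7, both saline libraries lie above both sham libraries, and no gene passed the test.

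Of the remaining proximal tubule promoters, Cmbl (a cytosolic hydrolase) had 35.4% and 34.9% in 5AZA, 45.1% and 38.4% in saline, and 31.5% and 30.1% in sham. In Cmbl the 3 groups did not overlap, with 5AZA between the others. Ldhd (D-lactate dehydrogenase) and Dao (D-amino acid oxidase) also had saline above sham without overlap, by 7.58 and 6.38 points. Cdhr5 (a microvillus cadherin), Haao (an enzyme of tryptophan breakdown) and Mme (the brush border peptidase neprilysin) had differences of 5.92, 4.003 and 2.44 points with overlapping libraries. Aldh4a1, a mitochondrial enzyme of proline breakdown, was the only one with a lower mean in saline, at -1.45 points, also with overlap.

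The sites outside CCGG had both saline libraries above both sham libraries in 5 of the 6 promoters printed above. These 6 were picked after their values were seen. By the level of the whole window, this order held in 61 of all 151 promoter windows and in 32.3% of all windows. In Dpep1 these 4 sites averaged 31.1% and 28.8% in the 5AZA libraries, 46.8% and 32.3% in the saline libraries, and 27.3% and 17.4% in the sham libraries. In Pklr they averaged 35.1% and 21.3% in 5AZA, 51.7% and 30.2% in saline, and 27.7% and 27.4% in sham. In A1cf they averaged 43.8% and 47.7% in 5AZA, 59.9% and 55.8% in saline, and 48.1% and 38.3% in sham. In each of these 3 genes saline 1 was the highest of the 6 libraries. In Cubn they averaged 42.4% and 48.6% in 5AZA, 67.2% and 55.4% in saline, and 44.1% and 43.3% in sham. In Slc7a7 they averaged 16.0% and 18.4% in 5AZA, 13.9% and 23.6% in saline, and 13.0% and 8.88% in sham. In Col1a2, the exception, the single site had 2.70% and 1.89% in 5AZA, 0% and 6.38% in saline, and 0% in both sham libraries.

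In the blood, immune and matrix promoters no saline pair lay above the sham pair, beside 61 of all 151 promoter windows. These few genes were listed with their values known, so this supports no statement about such genes or a contrast with the proximal tubule list. In Itga2b, an integrin of platelets, the level was 56.9% and 62.6% in 5AZA, 57.4% and 59.7% in saline, and 64.6% and 60.8% in sham. There saline lay below sham without overlap. Jak3, P2rx1 and Plcb2 had saline minus sham differences of 0.34, -5.40 and 1.49 points with overlapping libraries. Col1a2 had 42.4% and 50% in 5AZA, 38.8% and 50.8% in saline, and 57.3% and 32.1% in sham, a spread within sham wider than any difference between groups. Ltbp1, a matrix protein that binds latent TGF-beta, had 62.1% and 56.9% in 5AZA, 68.8% and 65.0% in saline, and 59.6% and 68.9% in sham.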

How the data were processed

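Each of the 6 deposited tables, 1 per library, lists CpG sites with counts that the authors deposited of covering and of methylated reads, and the fraction of methylated reads. Bowtie and mm9 are the tool and build in the submitters' processing notes, and no source used here gives the trimming, the methylation caller or any filter. The counts were summed over windows of 1000 bp from sites with at least 10 reads in all 6 libraries. The test on methylated and unmethylated counts was the quasi-likelihood test of edgeR 4.0.16 under R 4.3.3, with an intercept per library, a group effect on methylated reads and 1 common dispersion, over 89813 windows with Benjamini-Hochberg adjustment and a threshold of 0.05. It was checked on simulated data in which 100 of the intermediate windows changed by 10 points and 100 by 20 points. All other windows were left unchanged, with 1 fixed dispersion. Between saline and sham the test found 1% of the changes of 10 points and 58% of those of 20 points. Between 5AZA and saline it found 8% and 64%, and between 5AZA and sham 7% and 63%. The share found depends on how many windows change, so these values need not hold in the real data. A window that did not pass can still differ. limma 3.58.1 on log2 ratios was an alternative. Other steps used Python 3.11.15 with pandas 2.3.3, numpy 2.4.6, numba 0.67.0 and matplotlib 3.10.9.

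No mm9 genome or annotation was used. RefSeq promoter sequences (GRCm38.p6) were compared, by the spacing of their CpG dinucleotides, with all measured positions of their chromosome on mm9. Of 31365 autosomal promoters 10764 had a single best place, with at least 5 matched sites and 2 more than the next best, and 10724 shared their shift with a neighbouring placed promoter and were used. The table held no promoter of chromosome 18.

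Windows were named by rule: up to 5 rises and 5 falls per comparison that passed the test without overlap, filled up by the smallest p, the 3 widest and 3 narrowest spans of site levels, 2 windows on either side of each limit, and the longest runs. The windows and lists were chosen with earlier results of these data known, and promoter genes after their values were seen. The alternatives, with the interior sites added after the data were seen, are given with their effect further on.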

Additional observations from a re-analysis of the deposited data

How the results depend on the processing

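Of the settings below, the one without junction sites kept the outer sites, and the one with interior sites only dropped the outer sites too. The number of windows that passed depended on the processing. Between saline and sham (7) it was 0 without junction sites, beside 6 of all 87532 windows tested, and 0 by limma, beside 0. It was 18 with interior sites only, beside 76 of 93798. With the 4 libraries of both groups only it was 15, beside 72 of 89812. Most of the 7 no longer passed with 1 library left out. Between 5AZA and saline (119) it was 78 with a coverage minimum of 20, beside 860 of all 62452 windows tested. It was 7 without junction sites, beside 129 of 87532, and 2 with interior sites only, beside 29 of 93798. With the 4 libraries of both groups only it was 11, beside 173 of 89813, and by limma 0, beside 0. Most of the 119 no longer passed with 1 library left out. Between 5AZA and sham (0) it was 0 in every setting with 2 libraries per group, beside 0 to 2 of all windows tested. It changed only without 5AZA 1, which leaves 1 library in that group. The cause was not tested. All 7 and all 119 windows kept their direction in every setting that tested them.

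With the replicate number as a block, 206 of the 7216 windows passed between 5AZA and saline, beside 2339 of all 89813. The numbers did not pair the libraries (correlation of the replicate differences of 0.03 over the 7216 windows). No paired analysis was possible for sham because sham 2 has no such number in its labels.

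The mean saline minus sham difference was 7.24 points with interior sites of windows with an interior median from 20% to under 70%. The mean 5AZA minus saline difference was -5.83 points with site means, -6.08 points between group means of each library's median window level, -7.85 points with interior sites and -9.05 points with interior sites of the windows just named. With 1 library left out it was -5.76 to -5.29 points, saline minus sham was 3.54 to 7.16 points, and 5AZA minus sham was -1.99 to 1.63 points. The last difference changed sign between settings and was within the spread of the sham libraries. For the named windows, 629 recomputed adjusted p-values stayed on the same side of the threshold, 61 lost it, 2 passed it newly, and 0 changed direction. A coverage of 30 reads per site in sham 2 limits the smallest difference that can be seen.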
